A study of Caenorhabditis elegans with 3 samples.

Results

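The ceh genes are the homeobox genes of the nematode Caenorhabditis elegans that carry the family's own name. They were taken as all protein-coding genes of the Ensembl WBcel235 annotation whose name begins with ceh-, which gave 63 of 19973 genes on the nuclear chromosomes. The rule uses the names alone. The question was where the zinc-finger transcription factor PQM-1 had peaks at these genes, in chromatin immunoprecipitation and sequencing (ChIP-seq) of whole L1 larvae.

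The larvae were of mixed sex and of strain OP201, which is mutant for unc-119 (allele tm4063, chromosome III). The strain also carries the transgene wgIs201, from which PQM-1 is made with GFP and FLAG tags at its C terminus. The 1 group held 3 biological replicates, all with the same strain, stage and tag, so there was no untagged or mutant group to compare with. Whole larvae were used, and a peak can therefore not be assigned to a tissue. Peaks were ranked by the caller's signal, with rank 1 the highest, in lists of 30000 peaks for each replicate and for the 3 replicates pooled. The authors' list of peaks passing the irreproducible discovery rate (IDR) held the very highest of the pooled peaks and no others. The read depth of the replicates is unknown.

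Homeobox genes encode transcription factors that bind DNA through the homeodomain. In C. elegans they pattern the body and fix the identity of cells, and combinations of them distinguish most classes of neuron. PQM-1 is best known from the intestine, where it acts in growth and stress programmes alongside the insulin-regulated factor DAF-16. It is known to bind the DAF-16-associated element TGATAAG, which reads as a GATA word.

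Each gene was described by its best-ranked peak in 2 windows. The promoter window began 1000 bp before an annotated 5′ end of the gene and ended 200 bp after it. The wide window held the gene itself and 5000 bp upstream. A peak belonged to a window if its summit lay there. Genes were counted at 2 rank limits. The IDR limit took as many of the highest peaks of a list as the IDR list holds, and the other limit took the 3000 highest. A gene with no peak in a list was ranked after the last peak.

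The sequences around 7 pooled summits are shown because the account below turns on them. With those at ceh-5 and ceh-8, which are not printed and hold none of the words marked here, they are the 9 peaks ranked 3000 or better in the windows of ceh genes. Those of ceh-37 and ceh-79 are promoter peaks, and the others lie within or upstream of members. Each is 101 bases of the plus strand of WBcel235 (RefSeq), centred on the summit. Capitals mark, on either strand, 4 GATA words, namely AGATAA and AGATAG and TGATAA and TGATAG, and also TGATAAG, which contains the word TGATAA.
ceh-37, chrX:14208010-14208110: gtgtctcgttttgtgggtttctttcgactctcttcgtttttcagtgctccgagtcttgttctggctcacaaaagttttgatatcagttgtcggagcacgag
ceh-79, chrV:13301763-13301863: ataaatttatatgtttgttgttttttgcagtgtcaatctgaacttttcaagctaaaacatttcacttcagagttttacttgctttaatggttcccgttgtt
ceh-81 and ceh-82, chrII:1728400-1728500: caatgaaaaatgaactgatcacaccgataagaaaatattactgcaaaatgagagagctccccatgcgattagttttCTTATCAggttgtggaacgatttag
ceh-60, chrX:6522950-6523050: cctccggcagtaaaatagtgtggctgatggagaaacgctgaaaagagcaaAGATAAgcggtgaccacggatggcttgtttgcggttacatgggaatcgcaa
ceh-74, chrV:14175348-14175448: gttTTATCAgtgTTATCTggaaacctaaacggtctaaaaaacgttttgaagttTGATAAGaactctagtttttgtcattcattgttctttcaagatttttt
ceh-57, chrII:10364344-10364444: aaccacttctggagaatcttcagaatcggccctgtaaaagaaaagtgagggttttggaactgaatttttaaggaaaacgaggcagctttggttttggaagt
ceh-51, chrV:18871168-18871268: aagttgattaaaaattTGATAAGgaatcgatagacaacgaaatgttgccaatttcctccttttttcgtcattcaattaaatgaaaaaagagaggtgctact

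Strong promoter peaks were few among the ceh genes. Of the 63 genes, 1 (ceh-37) had a promoter peak within the IDR limit of the pooled list, which is 1.59% (95% exact binomial interval 0.0402 to 8.53), against 2.18% of all protein-coding genes. Among the 3000 highest pooled peaks there were 2, ceh-37 and ceh-79, or 3.17% (interval 0.387 to 11.0), against 8.23% of all genes. In the replicate lists the 3000 highest peaks reached 1, 3 and 2 members in replicates 1, 2 and 3. These are 1.59%, 4.76% and 3.17%, where 7.95%, 8.37% and 4.63% of all genes had such a peak. The mean over replicates was 3.17% ± 1.59 for the ceh genes and 6.98% ± 2.05 for all genes (SD, n = 3).

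The ceh share was the lower in each of the 3 replicates, but the exact interval of each contained the share of all genes. At this number of genes a difference from the rest of the genome was not detectable. At the IDR limit no member was reached in any single replicate (exact interval 0.0 to 5.69% in each), against 2.15%, 2.36% and 1.34% of all genes.

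**Figure D1:**
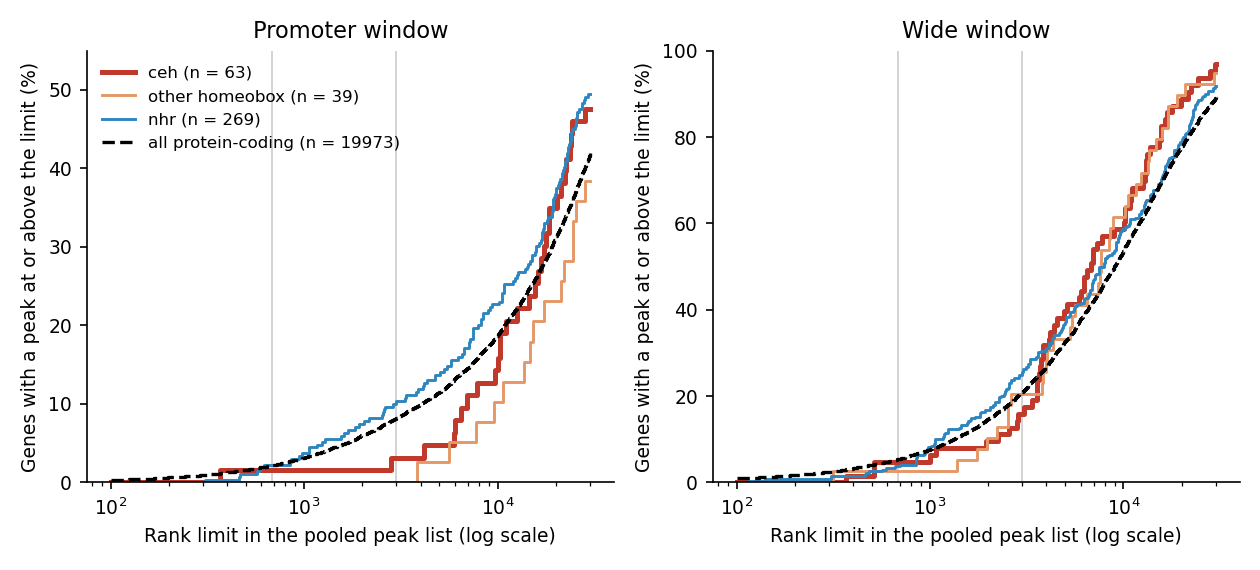
Share of genes (y axis, percent) with a pooled peak at or above a given rank (x axis, log scale), for the ceh genes, the other homeobox genes, the nhr genes and all protein-coding genes. Grey lines mark the IDR limit and rank 3000. In the promoter window the ceh line stands at 1.59% at the IDR limit, against 2.18% for all genes, at 3.17% at rank 3000, against 8.23%, and it ends at 47.6%, against 41.9%.

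The promoter of ceh-37 was the exception in the family. CEH-37 is a paired-like homeodomain protein of the OTX group, known from the development of sensory neurons and for binding telomeric DNA. Its pooled peak (chrX:14207915-14208204) ranked 368, with a signal of 42.1 as the authors' caller gave it, and its summit lay 60 bp upstream of the outermost 5′ end. The gene (X, 14197372 to 14208000, minus strand) was in position 230 among all 19973 genes by best promoter rank. The same peak ranked 920, 1757 and 1772 in replicates 1, 2 and 3, a mean of 1483 ± 488 (SD, n = 3). It was in the 3000 highest of every replicate, though not within the IDR limit of any.

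No other ceh gene had a promoter peak among the 3000 highest of all 3 replicates, a criterion met by 1 of 63 ceh genes (1.59%) and by 1.08% of all genes. In replicate 2 a second site, in an intron and 754 bp upstream of a later 5′ end of ceh-37, ranked higher still, at 1491. No other gene had the ceh-37 summit in its promoter window. The sequence printed for it holds none of the GATA words.

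The second promoter peak was that of ceh-79. Its pooled peak (chrV:13301668-13301957) ranked 2815, with a signal of 21.9, and had its summit 20 bp upstream of the only annotated 5′ end. The same peak ranked 6204 in replicate 1 and 2221 in replicate 3, and replicate 2 had no peak there. It too holds no GATA word within 50 bp of the summit. The limit of 3000 fell just below this peak. The next promoter peak, at rank 4120, was that of ceh-38, a gene of the ONECUT group, and it lay 4 bp upstream of 1 of 11 annotated 5′ ends. That peak ranked 2151 in replicate 2 and 17418 in replicate 1, was absent from replicate 3, and also lay in the promoter window of malt-1.

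Weak promoter peaks were common. Any peak of the pooled list lay in the promoter window of 30 of 63 ceh genes (47.6%, exact interval 34.9 to 60.6), against 41.9% of all genes. Single replicates gave 27, 23 and 21 genes, or 42.9%, 36.5% and 33.3%, against 43.3%, 42.7% and 35.5% of all genes. The summit lay upstream of the nearest 5′ end in 20 of the 30. The window takes 1000 bp before a 5′ end and 200 bp after it, so most summits would fall upstream by construction. For 4 members another gene's promoter window covered the same summit. These were ceh-38, ceh-7 (shared with prx-5, a peroxisome import gene), ceh-100 (with lips-15) and ceh-92 (with Y66D12A.7). Neither count has a share of all genes beside it, so neither is read as a trait of the ceh genes.

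Of the 30 best pooled promoter peaks, 1 (ceh-37) was covered to at least 50% by a peak in each of the 3 replicate lists (3.33%), against 11.6% of all genes with a pooled promoter peak. A further 11 were covered in 2 replicates, 12 in 1 and 6 in none, against 35.4%, 43.6% and 9.35% of all genes with a pooled promoter peak. Counting any promoter peak, whether or not at the same place, 4 ceh genes had one in all 3 replicate lists (6.35%), and 12.4% of all genes did. In the pooled and replicate lists together, 47 members (74.6%) had a promoter peak in at least 1 list, against 73.2% of all genes, and 16 had one in none. The 16 include the Hox gene ceh-13, the LIM gene ceh-14, the distal-less gene ceh-43 and the sine oculis genes ceh-33 and ceh-34.

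The wide window, which takes in the promoter, held a peak at nearly all members. There 61 of 63 genes had a pooled peak of any rank (96.8%), against 89.2% of all genes, and ceh-40 and ceh-45 had none. At 14 of the 61 (23.0%) this best peak was the promoter peak, against 23.7% of all genes with a wide-window peak. The wide windows of the ceh genes were longer, with a median of 7652 bp against 7024 bp for all genes. The gap to the next protein-coding gene upstream had a median of 1805 bp, against 937 bp. Shares per gene in this window therefore need the density below beside them.

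Within the IDR limit of the pooled list, 3 ceh genes had a wide-window peak (4.76%, exact interval 0.993 to 13.3), against 5.39% of all genes. Among the 3000 highest there were 10 (15.9%, interval 7.88 to 27.3), against 21.2%. In replicates 1, 2 and 3 the 3000 highest peaks reached 14, 11 and 11 members, which are 22.2%, 17.5% and 17.5%, against 21.3%, 21.5% and 21.7% of all genes. The means were 19.0% ± 2.75 for the ceh genes and 21.5% ± 0.181 for all genes (SD, n = 3). Each of these intervals contained the share of all genes.

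The median of the best wide-window rank was 6750 for the ceh genes and 8922 for all genes in the pooled list. In replicates 1, 2 and 3 it was 6344, 11339 and 8859 for the ceh genes and 9023, 9098 and 9008 for all genes. The means, 8847 ± 2498 and 9043 ± 48.2 (SD, n = 3), differed by less than the spread between replicates. In the promoter window the median of both fell past the end of the pooled list, since 47.6% of the ceh genes and 41.9% of all genes had a peak there.

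**Figure D2:**
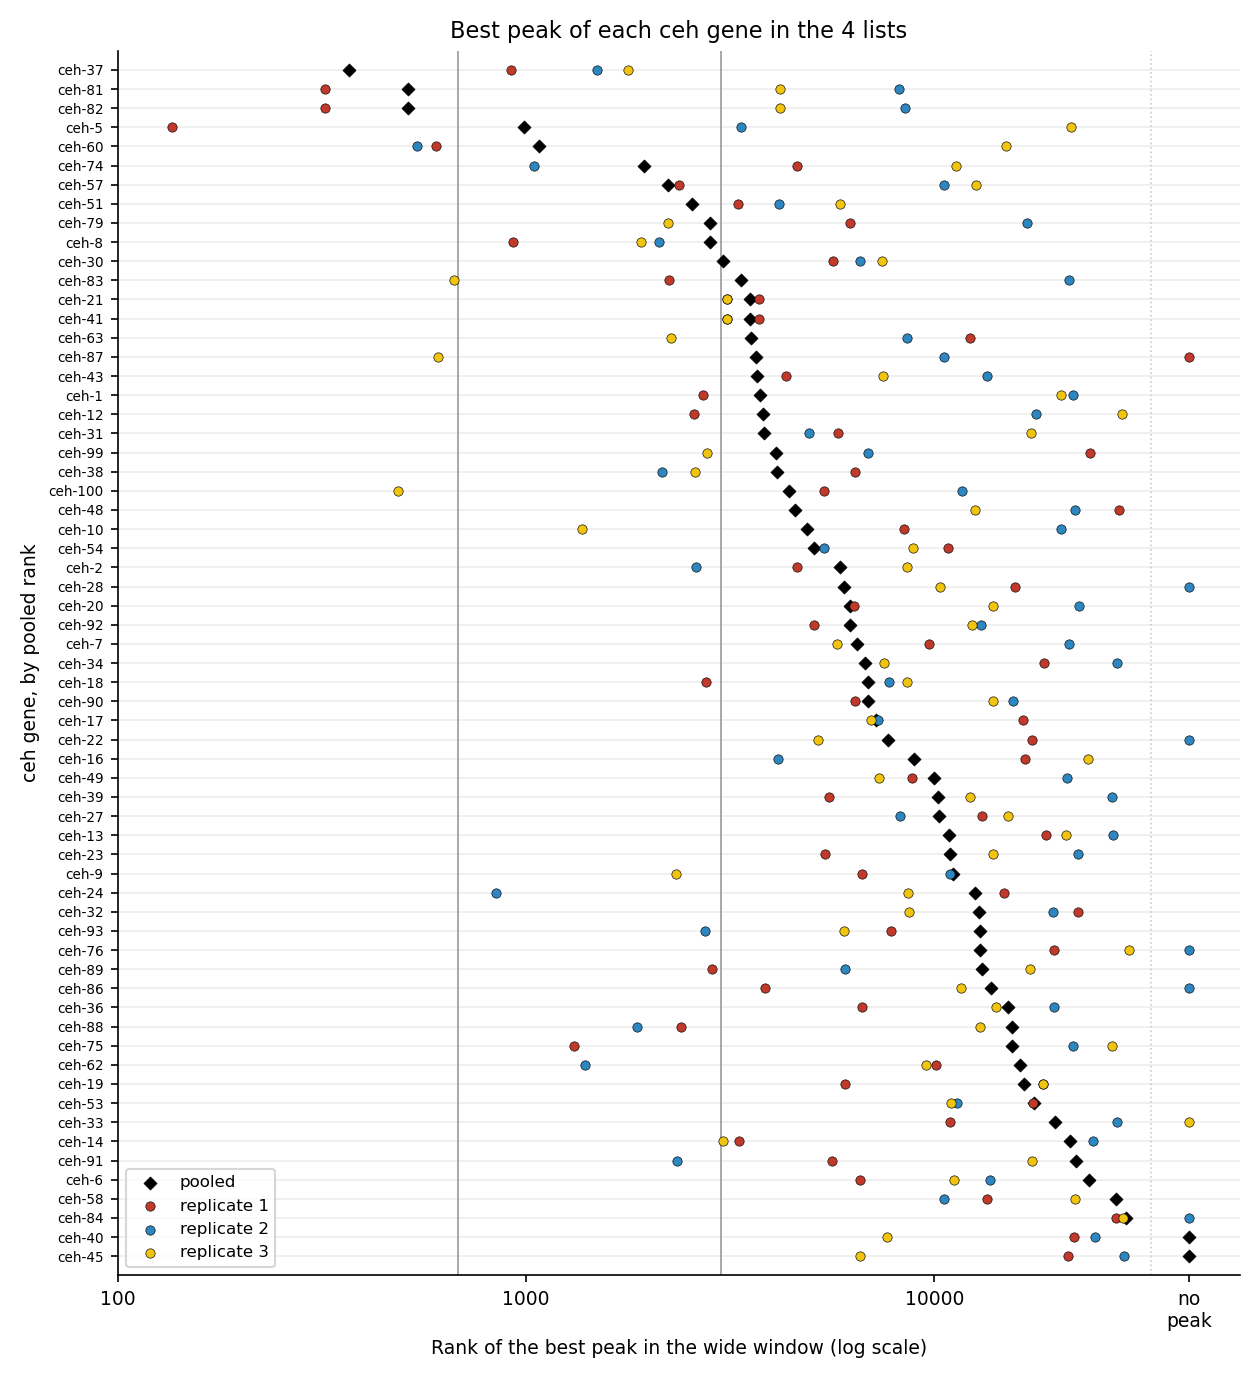
Rank of the best wide-window peak (x axis, log scale, strongest at the left) of each of the 63 ceh genes (y axis, ordered by pooled rank), in the pooled list (diamonds) and in the 3 replicates (circles). Grey lines mark the IDR limit and rank 3000, and points right of the dotted line have no peak. All 4 points of ceh-37 and ceh-8 lie left of the line at 3000. At ceh-5 the replicates stand at 136, 3356 and 21586.

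Per length, the wide windows of the ceh genes held no more strong peaks than the rest of the genome. Their 0.515 Mb held 9 of the 3000 highest pooled peaks, or 17.5 per Mb, against 30.7 per Mb in the wide windows of all genes and 29.9 per Mb over the whole genome. In replicates 1, 2 and 3 the density was 27.2, 27.2 and 23.3 per Mb, a mean of 25.9 ± 2.25, against 30.9 ± 0.2 for all genes (SD, n = 3). All 3 replicate values and the pooled value of the ceh genes were below those of all genes. With 9 to 14 peaks in each list, counting error is large.

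In the promoter windows of the ceh genes, 0.0934 Mb in all, the density was 10.7, 42.8 and 21.4 per Mb in replicates 1, 2 and 3. For all genes it was 53.4, 55.6 and 32.3 per Mb. These ceh values rest on 1, 4 and 2 peaks. Within each replicate the ceh value was the lower, and so it was in the pooled list, at 21.4 against 54.8 per Mb. Across replicates the values overlapped, since replicate 2 of the ceh genes stood above replicate 3 of all genes. With so few peaks, counting error is large.

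**Figure D3:**
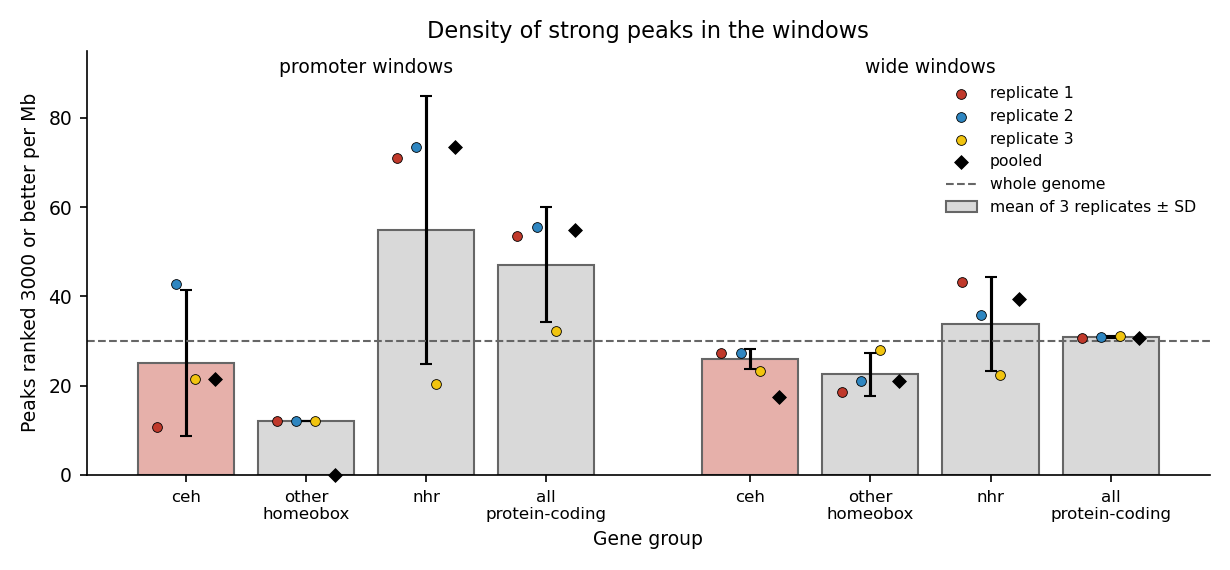
Density of peaks ranked 3000 or better (y axis, peaks per Mb of window) in the promoter and wide windows of the ceh genes, the other homeobox genes, the nhr genes and all protein-coding genes (x axis). Bars show the mean of 3 replicates with its SD, circles the replicates and diamonds the pooled list, and the dashed line is the whole genome at 29.9 per Mb. In the promoter windows the ceh replicates stand at 10.7 to 42.8 per Mb, against 32.3 to 55.6 per Mb for all genes. In the wide windows the ceh bar stands at 25.9 per Mb, against 30.9 per Mb.

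The 10 ceh genes with a wide-window peak among the 3000 highest pooled peaks shared 9 peaks, and at 6 of the 10 the nearest 5′ end belonged to another gene, against 50.2% of all genes with such a peak. The second strongest peak after that of ceh-37 lay upstream of ceh-81 and ceh-82, neighbouring genes on chromosome II (chrII:1728305-1728594, pooled rank 512, signal 38.3). Its summit was 1953 bp upstream of ceh-81 and 3782 bp upstream of ceh-82, but 56 bp from the 5′ end of btb-9, a BTB-domain gene. It ranked 321, 8479 and 4195 in replicates 1, 2 and 3, so that only replicate 1 placed it among its 3000 highest. The sequence above holds TGATAAG, written there as CTTATCA, once.

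At ceh-5 the pooled peak ranked 985, and it ranked 136 in replicate 1, the highest rank of any ceh gene in a replicate list. Replicate 2 had it at 15308 and replicate 3 had no peak there. The summit lay 4772 bp upstream of ceh-5 and 319 bp from the 5′ end of eat-16, which encodes a regulator of G-protein signalling. At ceh-74 the peak (rank 1945) was 2681 bp upstream but 43 bp from the 5′ end of cest-2.2, a carboxylesterase-family gene. It ranked 11402, 1046 and 11281 in the replicates, and it holds TGATAAG and 2 further GATA words. At these loci the gene to which the peak belongs is not resolved.

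Peaks inside members were found at ceh-60, ceh-57 and ceh-8. CEH-60 is a PBC-class homeodomain protein, related to vertebrate PBX, that is known to act in the intestine in yolk protein production. Its pooled peak (chrX:6522855-6523144, rank 1075, signal 29.6) lay in an intron, 7146 bp downstream of the only 5′ end of this gene of 7551 bp. It ranked 600 and 540 in replicates 1 and 2 and was absent from replicate 3. The nearest 5′ end, 3181 bp away, was that of ets-4, an ETS-family transcription factor gene, and the summit lay in no promoter window. The sequence holds AGATAA at the summit and no TGATAA.

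ceh-60 was the only ceh gene with a wide-window peak within the IDR limit of 2 replicates, a criterion met by 1 of 63 ceh genes (1.59%) and by 3.49% of all genes. Its promoter window, by contrast, had only weak peaks, at ranks 11672, 16707 and 26350 in the replicates and 14522 in the pooled list.

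At ceh-8, an RX-related paired-like gene, the pooled peak ranked 2826 and lay in an exon, 1314 bp downstream of a 5′ end and 690 bp from that of the cuticle collagen gene col-63. Its summit also lay in the promoter window of col-63, so the gene to which it belongs is not resolved. The pooled peak ranked 928 and 2110 in replicates 1 and 2 and was absent from replicate 3. The best peak of replicate 3, ranked 1911, lay in an intron 235 bp downstream of a 5′ end of ceh-8. ceh-8 and ceh-37 were thus the 2 members with a wide-window peak among the 3000 highest of all 3 replicates (3.17%, against 4.74% of all genes). Without replicate 3 there were 4, since ceh-60 and ceh-88 then met the criterion, and that count has no share of all genes beside it. Only at ceh-37 was 1 pooled peak covered by such a peak in each. At ceh-57 the peak (rank 2228) lay in an intron 1315 bp downstream of a 5′ end and ranked 2367 in replicate 1 and 25521 in replicate 3, with none in replicate 2. The sequence printed for it holds none of the GATA words.

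The peak of ceh-51, an NK-like gene needed for mesoderm specification, ranked 2550 in the pooled list. Its summit lay 2915 bp upstream of ceh-51, inside the gene emb-4, and ceh-51 had the nearest 5′ end. It ranked 3297 in replicate 1 and 23871 in replicate 3, was absent from replicate 2, and was in the 3000 highest of none. The sequence holds TGATAAG once.

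**Figure D4:**
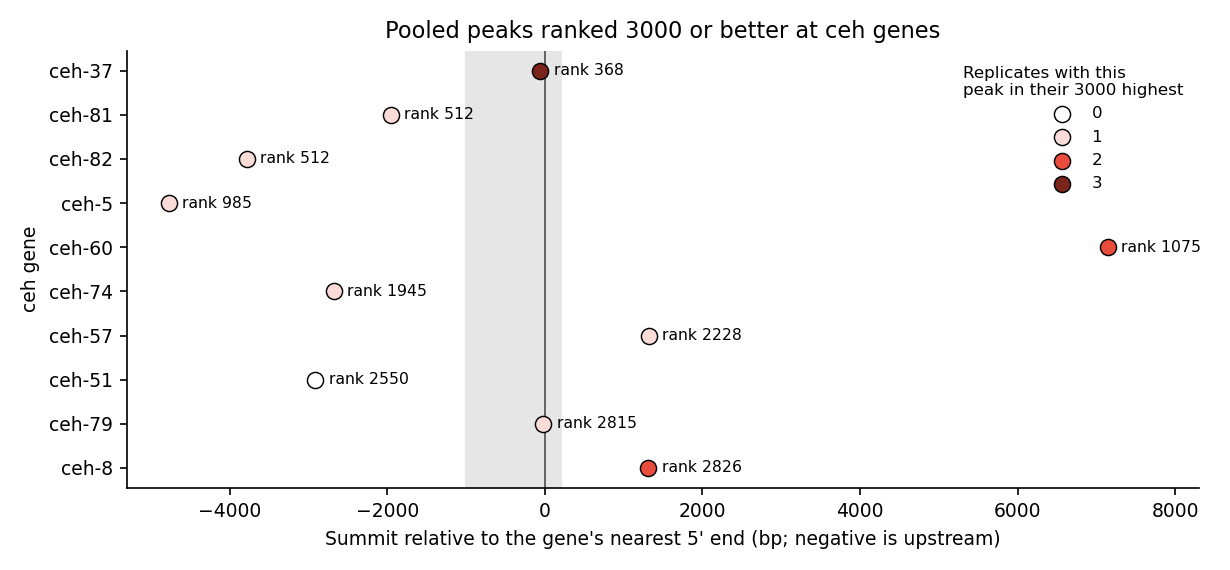
Position of the pooled peaks ranked 3000 or better in the wide windows of 10 ceh genes (y axis, strongest at the top), as the distance of the summit from the gene's nearest 5′ end in bp (x axis). The grey band is the promoter window, labels give the pooled rank, and the fill gives in how many replicates the same peak was among the 3000 highest. Only ceh-37, 60 bp upstream, and ceh-79, 20 bp upstream, lie in the band, and only ceh-37 has the darkest fill, for 3 replicates.

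Few genes were reached in more than 1 replicate, among the members as among all genes. Within the IDR limit, the wide window reached ceh-5, ceh-81, ceh-82 and ceh-60 in replicate 1 (6.35%, against 5.48% of all genes). It reached ceh-60 in replicate 2 (1.59%, against 5.62%) and ceh-100, ceh-87 and ceh-83 in replicate 3 (4.76%, against 5.68%). In at least 1 replicate that made 7 members (11.1%, against 12.3% of all genes). At the limit of 3000, 28 members were reached in at least 1 replicate (44.4%, against 44.1% of all genes) and 6 in at least 2 (9.52%, against 15.6%). The 6 were ceh-37, ceh-8, ceh-60, ceh-88, ceh-38 and ceh-83. The best wide-window peak of ceh-100 ranked 5349 in replicate 1, 11683 in replicate 2 and 484 in replicate 3. For the 10 members with a pooled peak ranked 3000 or better, that peak was for 1 member among the 3000 highest of 3 replicates (against 10.4% of all genes with such a pooled peak), for 2 members of 2 replicates, for 6 of 1 and for 1 of none. Over all genes with such a pooled peak the shares for 2, 1 and 0 replicates were 29.3%, 42.2% and 18.1%.

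Peaks were also counted by class of homeodomain, with at most 8 members in a class. Of all genes, 8.23% had a promoter peak and 21.2% a wide-window peak among the 3000 highest pooled peaks. A pooled promoter peak of any rank was found at 41.9%. Counts in so few genes are not read as traits of a class, and differences between classes were not tested. Classes were assigned from general knowledge, and the 29 members whose class was not sure, ceh-51 among them, were given none. The paired-like class had 8 members, of which 1 had a promoter peak and 2 a wide-window peak among the 3000 highest pooled peaks (ceh-37 and ceh-8). ceh-36, the OTX-group neighbour of ceh-37 on chromosome X and a regulator of chemosensory neurons, had no pooled promoter peak. Its best wide-window peak ranked 15167 in the pooled list and 6649, 19568 and 14181 in the replicates, all below those of ceh-37. ceh-10, a gene of the CHX10 group that acts in neurons, had a wide-window peak of pooled rank 4882 and ranks of 8417, 20378 and 1369.

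The CUT class, with 6 members, had no peak among the 3000 highest pooled peaks in either window, and its pooled wide-window ranks ran from 3540 to 10173. In the replicates its member ceh-38 had best wide-window ranks of 6371, 2151 and 2595. The best pooled peak of the class was in an intron of ceh-21 and also lies upstream of ceh-41, neighbouring ONECUT genes on X. Its windows gave best ranks of 3720, 3107 and 3105 in the replicates at both genes, but the pooled peak itself ranked 3271 and 4964 in replicates 2 and 3 and had no counterpart in replicate 1. ceh-39, a further ONECUT gene beside them and an X-chromosome signal element of sex determination, had a promoter peak 207 bp upstream of its 5′ end. That peak ranked 10173 in the pooled list and 14158 in replicate 1, and was absent from the other replicates.

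The PBC class held ceh-60, ceh-20 and ceh-40. ceh-20, which encodes the main cofactor of the worm Hox proteins, had a wide-window peak of pooled rank 6224, 1367 bp upstream, and no pooled promoter peak. The best wide-window ranks of ceh-20 in the replicates were 6344, 22546 and 13918. ceh-40 had no pooled peak in either window, but its best wide-window ranks in the replicates were 21939, 24677 and 7653.

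Of the 4 genes classed here as NK2, which leave out the NK-like gene ceh-51, 2 had a pooled promoter peak. That of ceh-22, a regulator of pharyngeal muscle, ranked 7708 in the pooled list and 26910 and 5194 in replicates 1 and 3, 182 bp downstream of a 5′ end. That of ceh-28, which acts in a pharyngeal neuron, ranked 6007. The 3 sine oculis genes had no pooled promoter peak. The best wide-window peak of ceh-34, a regulator of pharyngeal neurons, ranked 6750 in the pooled list and 18577, 27922 and 7504 in the replicates.

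The Hox gene ceh-13, of the labial group, had a best wide-window rank of 10828 in the pooled list and 18721, 27371 and 21046 in the replicates. The engrailed gene ceh-16, which acts in seam cells of the epidermis, had 8913 in the pooled list and 16642, 4136 and 23772. The distal-less gene ceh-43 had 3669, with 4338, 13467 and 7459 in the replicates. The POU gene ceh-6, which acts in the excretory cell, had 23900, with 6583, 13662 and 11187. The LIM gene ceh-14, which acts in a thermosensory neuron, had 21420, with 3314, 24407 and 3037. At each of these 5 genes no list gave a wide-window rank within the 3000 highest. Of the 29 members given no class, 7 had a wide-window peak among the 3000 highest pooled peaks, against 21.2% of all genes. Among the classed members, 2 of 8 paired-like genes and 1 of 3 PBC genes had one.

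Other transcription factor families give a scale for these values. Of 40 homeobox genes named otherwise, such as lin-39 and unc-86, 39 matched the annotation. Among the 3000 highest pooled peaks, 2 of 63 ceh genes and none of these 39 (exact interval 0.0 to 9.03%) had a promoter peak. In the wide window 10 of 63 ceh genes (15.9%) and 8 of these 39 (20.5%) did. The wide windows of these 39 were longer, with a median of 9858 bp against 7652 bp for the ceh genes. Mean densities over replicates at the limit of 3000 were 22.5 ± 4.83 per Mb for the 39 and 25.9 ± 2.25 for the ceh genes (SD, n = 3). The ceh density was the higher in replicates 1 and 2 and the lower in replicate 3 and the pooled list. The wide-window shares are therefore not read as a difference between these families. The strongest among the 39 was at hmbx-1, at pooled rank 312, with ranks of 497, 9343 and 26 in the replicates. Of 269 nuclear hormone receptor genes (nhr), a large family of transcription factors in the worm, 28 had a promoter peak within the 3000 highest (10.4%, interval 7.03 to 14.7). The share of all genes, 8.23%, lay within that interval.

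That nhr interval overlaps the interval of the ceh genes, 0.387 to 11.0. In replicate 3 the shares were 3.17% for the ceh genes and 2.97% for the nhr genes, while in replicates 1 and 2 they were 1.59% and 4.76% for the ceh genes and 10.4% and 10.8% for the nhr genes. The nhr share in replicate 3 was thus below the other replicates by more than the ceh share moved. The share of all genes was lowest in replicate 3 too, at 4.63%, against 7.95% and 8.37% in replicates 1 and 2.

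The share of the best wide-window peaks of ceh genes with GATA words stood near that of all genes' peaks. TGATAAG lay within 50 bp of the summit of 6 of the 59 distinct best wide-window peaks of ceh genes (10.2%, exact interval 3.82 to 20.8), against 799 of 10967 for all genes (7.29%). It was in 1.72% of all genome windows of 101 bp and in 20.7% of the 3000 highest pooled peaks. The ceh genes with it were ceh-81 and ceh-82, which share a peak, ceh-74, ceh-51, ceh-7, ceh-18 and ceh-33. TGATAA lay at 12 of 59 (20.3%), against 17.4% for all genes and 9.35% of genome windows. Any of the 4 GATA words lay at 17 of 59 (28.8%), against 27.8% for all genes and 19.8% of genome windows. All counts are over both strands.

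The words were also present in promoters of ceh genes without strong peaks. TGATAAG occurred in the promoter sequence, taken once per gene at its outermost 5′ end, of 13 of 63 ceh genes (20.6%, exact interval 11.5 to 32.7), against 23.7% of all genes. Of these 13, 6 had a promoter peak of any rank in the pooled list, and of the 50 without the word 24 did. Over all genes the shares were 49.8% with the word and 39.5% without it. ceh-13, ceh-14, ceh-20 and ceh-43 had the word and no pooled promoter peak. A match is a run of letters and does not show a binding site.

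The ceh genes were not spread like other genes over the chromosomes. Chromosome X held 18 of 63 (28.6%), against 13.7% of all genes, and chromosome IV held 4 (6.35%), against 16.4%. Of the 10 members with a wide-window peak in the 3000 highest pooled peaks, ceh-37 and ceh-60 are on X. The share on X of all genes with such a peak is not given, so this count is not read as a trait of the chromosome.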

How the data were processed

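The authors deposited ChIP-seq peak lists for 3 replicates of 1 group and for the pooled replicates, called with 1 control file that was not analysed here, per the README deposited with each sample. Column 7 of the deposited lists is the peak signal, used to rank peaks within a list only. The IDR list is the 682 highest of 30000 pooled peaks. The peak caller, aligner and IDR threshold were not given in the sources used here. The ce11 lists were used, with positions 1-based, genes from Ensembl release 115 and sequence from RefSeq, both of assembly WBcel235, which is ce11. Lists on ce10 were not used.

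Windows, best ranks, densities and words were computed in Python 3.11.15 with SciPy 1.17.1, pandas 2.3.3 and numpy 2.4.6, and drawn with matplotlib 3.10.9. The functions were tested on simulated data. Tied signals were ordered by position. Of the 3000 highest peaks, 0, 14 and 26 in replicates 1, 2 and 3 were tied. A replicate peak counted as the same peak if it covered at least 50% of the pooled one. Shares have exact binomial 95% intervals, which cover counting of genes or peaks only and treat them as independent. No test was run, since there was 1 group.

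The gene family, the other gene lists and the rank limits were chosen with earlier results of these data known. Full values are given for members with a pooled promoter peak ranked 3000 or better, a pooled wide-window peak within the IDR limit or a promoter peak in the 3000 highest of all replicates. They are also given for ceh-37, ceh-36, ceh-60, ceh-20, ceh-13, ceh-16, ceh-43, ceh-22, ceh-34, ceh-6, ceh-14 and ceh-39. Other members, and genes of other families, were named after their values were seen.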

Additional observations from a re-analysis of the deposited data

How the results depend on the processing

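No paired analysis was possible because all 3 replicates belong to the same group. The pooled list could not be rebuilt with a replicate left out. The pooled promoter count of 1 at the IDR limit became 2 with 2000 bp upstream (3.17%, against 2.91% of all genes). At 0.5 times the limit it became 0 (against 1.05% of all genes). The promoter count of 2 at the limit of 3000 became 1 among the 1500 highest (1.59%, against 4.68% of all genes). Among the 6000 highest it became 4 (6.35%, against 13.2%). The wide-window count of 3 at the IDR limit became 0 in the gene body alone (against 1.1% of all genes). With the nearest 5′ end alone it became 1 (1.59%, against 2.79%). It became 0 at 0.5 times the limit (against 2.73%) and 5 at 2 times the limit (7.94%, against 10.4%). The wide-window count of 10 at the limit of 3000 became 6 with 2500 bp upstream or the gene body (9.52%, against 15.6% of all genes). It became 3 in the gene body alone (4.76%, against 5.87%) and 4 with the nearest 5′ end alone. It became 5 among the 1500 highest (7.94%, against 11.3%) and 27 among the 6000 highest. The shares of all genes thus moved as well. In the wide window they were 37.9% at the limit of 6000, against 42.9% of the ceh genes. At the limit of 3000 with the nearest 5′ end alone they were 11.3%, against 6.35% of the ceh genes.

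The promoter count of 1 in all 3 replicates was 0 at a limit of 1500 and 1 when any replicate was left out. The wide-window count of 2 in all 3 replicates was 1 in the gene body alone, 1 upstream alone, 1 with the nearest 5′ end alone, 0 at a limit of 1500 and 5 at a limit of 6000. It ranged from 3 to 4 when a replicate was left out, with 4 without replicate 3, since ceh-60 and ceh-88 then joined. Asking for the same peak in each replicate, an alternative chosen after seeing the data, gave 1. For the counts over replicates, no share of all genes is given at these other settings. How they stand against the genome is therefore not told. The median promoter rank, past the end of the list, became 19875 with 2000 bp upstream (23620 for all genes) and 22184 with any overlap. The median wide-window rank of 6750 became 11084 with 2500 bp upstream, 22184 in the gene body alone and 10239 upstream alone. For all genes the median of 8922 became 12923, 28359 and 12014 in the same settings. Counted by gene, TGATAAG at 7 members became 3 within 25 bp, and TGATAA at 13 became 5 within 25 bp and 22 within 100 bp. A shorter or longer stretch changes such a count for any genes. These word counts have no share of all genes beside them and are not read as a trait of the ceh genes. These alternatives use other windows or limits, which by construction hold fewer or more peaks. Treating ties differently, also chosen after seeing the data, left the 4 counts it was tried on the same. The low number of strong peaks, the unknown depth and the 63 genes limit what can be told apart.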
